A study of Mus musculus with 2 samples.

Results

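The genes described are 10 members of the Krueppel-like factor family (Klf2, Klf3, Klf4, Klf6, Klf7, Klf9, Klf10, Klf11, Klf12 and Klf13), listed by name by a rule that uses no value. The list was drawn up with earlier results of these data known, as were the pathway and marker lists below. Each had 1 row in both files, among 23961 gene symbols. The measurement was RNA sequencing of sorted bone marrow cells described as haematopoietic stem cells, from which all blood cells descend. The Per2def library came from Per2-deficient C57BL/6 mice and the Per2wt library from wild-type C57BL/6 mice. Both groups were untreated and kept under a light and dark cycle. There is 1 library per genotype, and the Per2 allele, the sort markers, the time of day and the number of animals are not given in the labels. The Per2 protein represses its own clock activators in a daily cycle.

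Krueppel-like factors are transcription factors with zinc fingers at the carboxyl end that bind GC-rich and CACCC sequences. The members are grouped here by action. Klf2, Klf4, Klf6 and Klf7 form the activator group, which mostly activates transcription. Klf9, Klf10, Klf11 and Klf13 form the group that recruits the Sin3a corepressor. Klf3 and Klf12 form the group that recruits the CtBP corepressors. Klf genes that are not members are not counted in these groups. In blood, Krueppel-like factors are known for quiescence and trafficking of lymphocytes (Klf2), monocyte differentiation (Klf4) and red cell formation (Klf1 and Klf3). Several are induced within minutes of stimulation, and Klf9 and Klf10 are known as clock output genes in mouse tissues.

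Levels are FPKM (fragments scaled by transcript length and by library size), and differences are log2(FPKM + 1) in Per2def minus the same in Per2wt; for low genes the added 1 makes it smaller than the change in FPKM. With 1 library per genotype there was no replicate check and no test, so every difference is between these libraries and not between genotypes. Read totals are not in the files, and the depth of each library is unknown. Among 3232 genes under 0.5 FPKM a Per2def to Per2wt ratio of 0.805 occurred most often, which corresponds to 1.24 times the depth in Per2def if these are single reads. Per2 itself stood at 6.16 FPKM in the library labelled Per2def and 1.96 FPKM in the library labelled Per2wt, so the RNA level goes against a loss of transcript. An allele can lose part of a gene and still be transcribed, and Per2def and Per2wt stand throughout for the libraries labelled so. Stem and progenitor markers went both ways, with 4 of 9 measured higher in Per2def and 5 lower (median −0.01). The share of all measured genes that were higher was larger, at 62.0%. With median of ratios and upper quartile scaling 3 of these markers were higher and 6 lower. The share of all genes higher was then 50.9% and 50.4%. Kit stood at 43.6 FPKM in Per2def and 42.7 FPKM in Per2wt, Cd34 at 83.9 and 90.5 FPKM and Flt3 at 51.4 and 48.8 FPKM. The widest were Cd48, a marker of progenitors beyond the stem cell, at 22.6 FPKM in Per2def and 16.01 FPKM in Per2wt (0.47), and Hlf, a stem cell regulator, at 15.8 FPKM in Per2def and 20.3 FPKM in Per2wt (−0.34). Slamf1 was under 1 FPKM in both (0.522 in Per2def and 0.245 in Per2wt). A lower level in such a bulk library cannot be told apart from fewer cells that make the RNA.

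Most measured members were lower in Per2def, with the widest difference in Klf4 of the activator group. Of the 10 members, 9 reached 1 FPKM in both libraries, all but Klf12, which was under it in both. Of those 9, 6 were lower in Per2def (Klf2, Klf4, Klf6, Klf9, Klf10 and Klf11) and 3 were higher (Klf3, Klf7 and Klf13), while 38.0% of the 11121 genes measured (1 FPKM or more in at least 1 library) were lower and 62.0% higher. That split of all genes holds for the FPKM as deposited; with median of ratios scaling 49.1% were lower and with upper quartile scaling 49.6%, and 6 of the 9 members were lower under both. Their median difference was −0.31, against 0.05 for all genes, with the FPKM as deposited. Each of the 9 kept its sign under every scaling tried, and these moved the median of all genes by at most 0.05. A pseudocount cannot turn a sign, and each member had 1 row, so the pseudocounts and the row rule could not test it. None of the 9 was 2-fold apart, as 2.25% of all genes were (1.25% higher and 0.998% lower), and Klf4 alone passed 1.5-fold, as 4.31% of all genes did. Summed over the 10 members the level was 46.3 FPKM in Per2def and 53.8 FPKM in Per2wt.

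**Figure D1:**
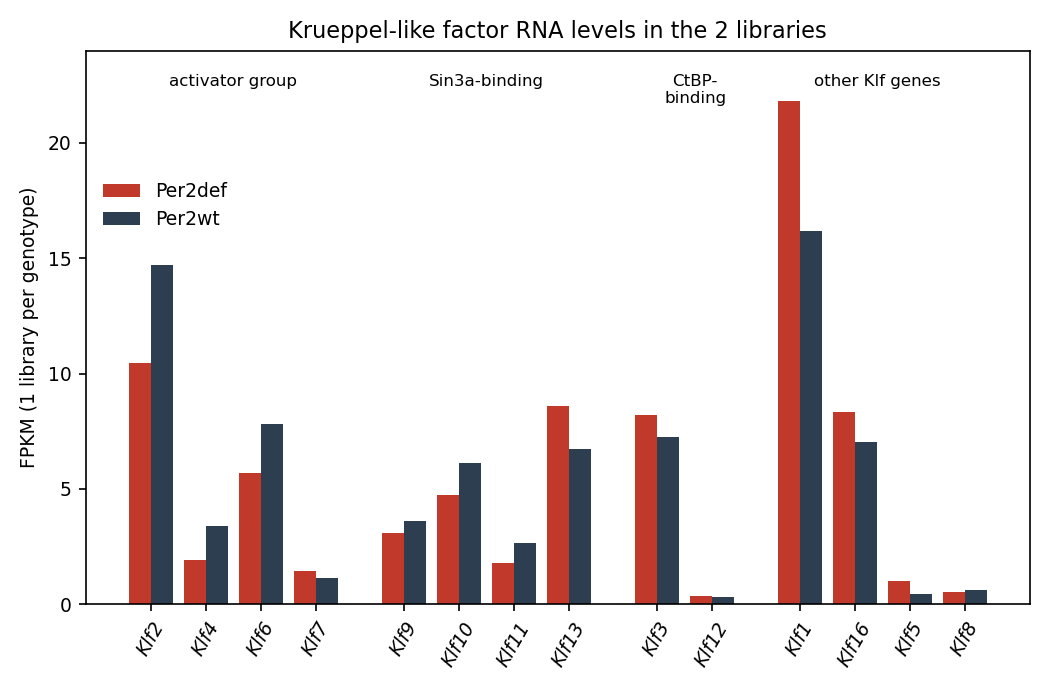
FPKM (linear axis from 0) of the 10 members and of 4 other Klf genes in the Per2def library (red, left) and the Per2wt library (dark, right), 1 library per genotype and no error bars. Klf2 was the highest member in both libraries, at 10.4 FPKM in Per2def and 14.7 FPKM in Per2wt, and Klf1 stood above it in both.

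In the activator group, Klf2, Klf4 and Klf6 were lower in Per2def and Klf7 was higher. Klf2 (ENSMUSG00000055148.7, chr8:72319033-72321656, GRCm38), which keeps lymphocytes quiescent and answers to blood flow in endothelium, stood at 10.4 FPKM in Per2def and 14.7 FPKM in Per2wt, a difference of −0.46. It was the most abundant member in both libraries. Klf4 (ENSMUSG00000003032.8, chr4:55527143-55532466), a monocyte regulator and reprogramming factor, stood at 1.90 FPKM in Per2def and 3.39 FPKM in Per2wt, the widest difference of the 10 members at −0.60. Klf6 (ENSMUSG00000000078.7, chr13:5861482-5870394), a broadly expressed early-response factor, stood at 5.68 FPKM in Per2def and 7.83 FPKM in Per2wt, a difference of −0.40. The fourth member of the group, Klf7 (ENSMUSG00000025959.13, chr1:64029447-64122282), known from axon growth in mouse neurons, stood at 1.46 FPKM in Per2def and 1.15 FPKM in Per2wt, a difference of 0.19. The summed level of Klf2, Klf4, Klf6 and Klf7 was 0.719 times as high in Per2def, at 19.5 FPKM against 27.1 FPKM in Per2wt. This sum leaves out Klf1 and the activator Klf5, which are not members and were higher in Per2def. Klf1 stood at 21.8 FPKM in Per2def and 16.2 FPKM in Per2wt, and Klf5 at 1.01 and 0.458 FPKM.

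The Sin3a-binding group held 3 members lower in Per2def and 1 higher, and the place of Klf11 behind Klf2 and Klf6 turned with the pseudocount. Klf11 (ENSMUSG00000020653.12, chr12:24651274-24662789), a repressor induced by TGF-beta, stood at 1.80 FPKM in Per2def and 2.64 FPKM in Per2wt, a difference of −0.38. This was narrower than in Klf2 and Klf6, but with a pseudocount of 0.1 FPKM Klf11 came second to Klf4, at −0.53 against −0.49 for Klf2 and −0.46 for Klf6, and with 0.5 FPKM it lay between Klf2 and Klf6 at −0.45. As a ratio of Per2wt to Per2def, the FPKM was 1.47 in Klf11, 1.41 in Klf2 and 1.38 in Klf6. Its close relative Klf10 (ENSMUSG00000037465.10, chr15:38291463-38300706), also induced by TGF-beta, stood at 4.74 FPKM in Per2def and 6.12 FPKM in Per2wt, a difference of −0.31. Klf9 (ENSMUSG00000033863.2, chr19:23141226-23168134), a glucocorticoid and thyroid hormone target, stood at 3.08 FPKM in Per2def and 3.62 FPKM in Per2wt, the narrowest of the 6 lower members at −0.18. Klf13 (ENSMUSG00000052040.10, chr7:63886351-63938915), known for activating the chemokine gene Ccl5 in T cells, was the widest on the other side, at 8.58 FPKM in Per2def and 6.72 FPKM in Per2wt, a difference of 0.31. Because Klf13 went the other way, the summed level of this group was nearly even, at 18.2 FPKM in Per2def and 19.1 FPKM in Per2wt.

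In the CtBP-binding group only Klf3 was measured, and it was higher in Per2def, as 62.0% of all measured genes were. Klf3 (ENSMUSG00000029178.14, chr5:64803388-64832901), a repressor that Klf1 switches on in red cell precursors, stood at 8.22 FPKM in Per2def and 7.26 FPKM in Per2wt, a difference of 0.16. Klf12 (ENSMUSG00000072294.5, chr14:99870632-100284679), a repressor of the AP-2 alpha gene, was low in both, at 0.368 FPKM in Per2def and 0.331 FPKM in Per2wt. Noncoding genes on the opposite strand overlap exons of Klf3 (Gm20033) and Klf7 (Gm26649 and Gm13748) in GENCODE M21. The strand setting of the authors' run is not given in the sources used here, so reads of these partners cannot be told apart from reads of Klf3 and Klf7.

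The order of the members by level was the same in both libraries except for places 2 and 4. Klf13 came after Klf2 in Per2def, where Klf6 was in place 4. In Per2wt Klf6 came after Klf2, and Klf13 was in place 4. Klf3 was in place 3, and Klf10, Klf9, Klf4, Klf11, Klf7 and Klf12 followed in that order in both. With no replicates, neighbours such as Klf3 and Klf13 (8.22 and 8.58 FPKM in Per2def, 7.26 and 6.72 FPKM in Per2wt) cannot be set apart from their spread. Ratios between members do not depend on how the libraries are scaled. Where a lower member is set over a higher one, a gap between the libraries follows from the differences above. Klf2 stood at 1.22 times Klf13 in Per2def and at 2.19 times Klf13 in Per2wt. The ratio of Klf4 to Klf7 was 1.31 in Per2def and 2.94 in Per2wt. Between Klf2 and Klf6, both lower, the ratio hardly differed, at 1.84 in Per2def and 1.88 in Per2wt.

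Against genes of like level, Klf4, Klf2 and Klf6 lay outside the bulk and the higher members lay inside it. Small and predicted RNAs were left out of this comparison. The bounds of the middle 95% of differences were −0.39 and 0.52 for the 4031 genes with a mean of 1 to 5 FPKM and −0.33 and 0.42 for the 4350 genes at 5 to 20 FPKM. As low as Klf4 or lower were 28 of the 4031 genes of its band. As low as Klf2 or lower were 52 of 4350 genes, and 75 were as low as Klf6 or lower. Klf11, with 110 of 4031 genes as low or lower, and Klf10, with 131 of 4350, lay just inside the lower edge. Klf9 was well inside, with 434 of 4031 genes as low or lower. On the other side, 237 of 4350 genes were as high as Klf13 or higher and 957 as high as Klf3 or higher, and 966 of 4031 were as high as Klf7 or higher. These counts describe the libraries and are no test.

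**Figure D2:**
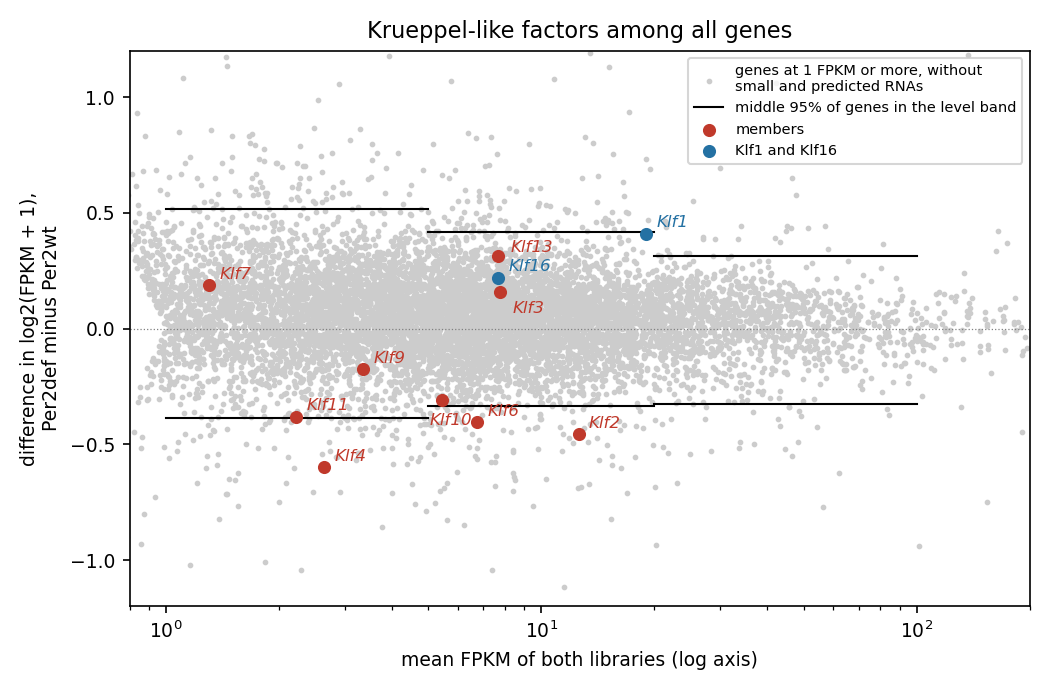
Difference in log2(FPKM + 1), Per2def minus Per2wt, against the mean FPKM of both libraries (log axis). Grey points are genes at 1 FPKM or more other than small and predicted RNAs (174 of 10076 lie outside the axes), black lines bound the middle 95% in each level band, red points are members and blue points are Klf1 and Klf16. Klf4, Klf2 and Klf6 lie below the lower line, at −0.60, −0.46 and −0.40.

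The promoters of the members are shown because Per2 acts on the clock factors that bind the E-box CACGTG, and because MEF2 factors are known to drive Klf2. RefSeq promoters (GRCm38.p6) were found for 9 of the 10 members, all but Klf10, so this lower member was not searched. The 250 bases before each transcription start were searched on both strands. CACGTG reads the same on both strands and was counted once. It was found in 3 of the 9, those of Klf4, Klf6 and Klf11, which were all lower in Per2def, and not in those of the lower members Klf2 and Klf9. It was found in 6.02% of all 32851 promoters and in 10.2% of the 8208 measured genes that had a promoter in the table. Across all measured genes with a match the median difference was 0.06 (840 genes, 34.0% lower), against 0.05 without a match (7368 genes, 38.3% lower). In the sequences below, written 5′ to 3′ on the gene's strand and ending before the first base of the GENCODE gene, capitals mark CACGTG in Klf4 (chr4:55532476-55532725, minus strand), Klf6 (chr13:5861239-5861481, plus strand) and Klf11 (chr12:24651121-24651273, plus strand).
Klf4: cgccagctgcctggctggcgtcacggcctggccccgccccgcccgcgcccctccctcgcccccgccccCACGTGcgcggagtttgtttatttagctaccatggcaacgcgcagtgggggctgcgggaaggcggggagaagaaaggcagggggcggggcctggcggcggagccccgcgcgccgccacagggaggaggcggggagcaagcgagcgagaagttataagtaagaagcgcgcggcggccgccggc
Klf6: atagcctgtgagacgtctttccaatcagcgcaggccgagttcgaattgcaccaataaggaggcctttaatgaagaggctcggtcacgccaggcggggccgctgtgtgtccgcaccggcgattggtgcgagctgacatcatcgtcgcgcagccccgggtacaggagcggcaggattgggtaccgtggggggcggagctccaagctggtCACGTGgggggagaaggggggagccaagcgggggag
Klf11: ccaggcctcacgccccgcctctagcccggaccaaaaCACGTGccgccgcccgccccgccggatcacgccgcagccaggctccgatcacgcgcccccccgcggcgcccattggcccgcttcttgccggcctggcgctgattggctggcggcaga
The match lay 182 bases before the start in Klf4, 43 in Klf6 and 214 in Klf11. Capitals mark the MEF2 site in Klf2 (chr8:72318812-72319032, plus strand) and, for contrast, the GC box GGGCGG or its reverse complement in Klf13 (chr7:63938916-63939165, minus strand), the member with the widest difference on the higher side.
Klf2: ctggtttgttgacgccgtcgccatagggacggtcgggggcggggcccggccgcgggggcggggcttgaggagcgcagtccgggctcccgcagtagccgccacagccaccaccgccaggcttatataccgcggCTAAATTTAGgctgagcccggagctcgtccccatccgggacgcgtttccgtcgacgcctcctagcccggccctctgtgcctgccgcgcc
Klf13: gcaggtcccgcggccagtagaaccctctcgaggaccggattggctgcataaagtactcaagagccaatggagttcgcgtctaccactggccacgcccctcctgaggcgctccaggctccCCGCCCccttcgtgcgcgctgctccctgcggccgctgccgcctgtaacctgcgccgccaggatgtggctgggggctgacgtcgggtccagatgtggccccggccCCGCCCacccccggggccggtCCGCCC
The MEF2 site began 118 bases before the start of Klf2 and was found in no other member and in 1.74% of measured genes. This search was added after the sequences had been read. The GC box was found in 7 of the 9 members, with 6 matches in Klf3 and 4 each in Klf4 and Klf11, and in 64.4% of measured genes. CACCC, the box that erythroid Klf1 binds, was found in 6 of the 9 (Klf2, Klf3, Klf7, Klf9, Klf12 and Klf13), and in 60.5% of measured genes. The 2 boxes may share bases, as they do in Klf3 and Klf13. Neither the cAMP response element TGACGTCA nor the serum response element was found in any of the 9. Of measured genes, 3.06% held the first and 1.21% the second. A match is a description of letters and not a bound site. For Klf7 and Klf12 the whole window lies inside the longer GENCODE gene, and none of it is printed.

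**Figure D3:**
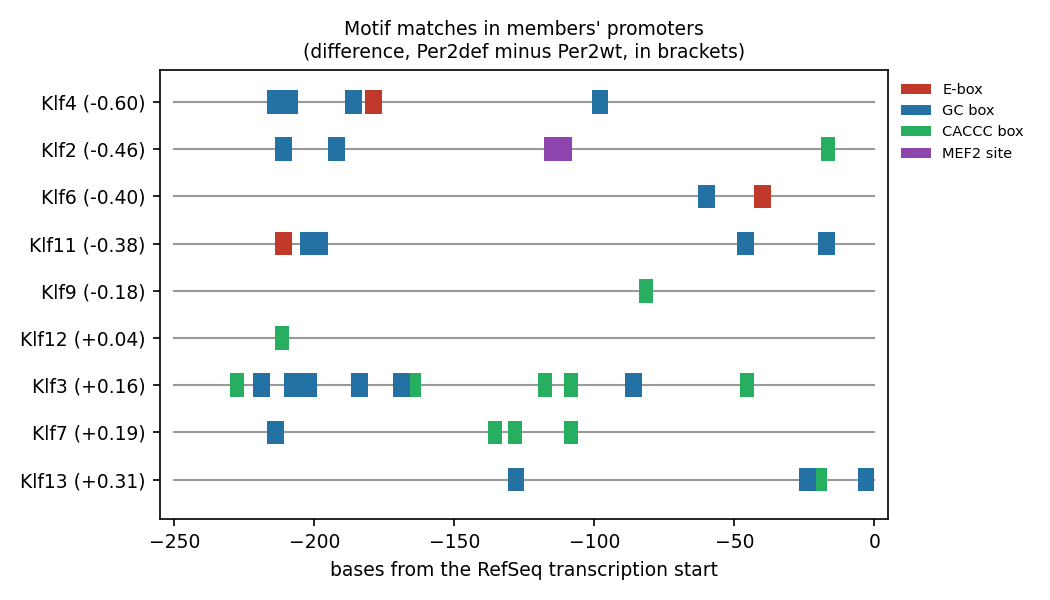
Matches to the E-box (red), GC box (blue), CACCC box (green) and MEF2 site (purple) in the 250 bases before the RefSeq transcription start of 9 members (all but Klf10), drawn to scale in bases from the start and ordered by difference, which stands in brackets. E-boxes are in Klf4, Klf6 and Klf11, and the MEF2 site is in Klf2.

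Among 7 further Klf genes, the 2 that reached 1 FPKM in both libraries, Klf1 and Klf16, were higher in Per2def, as 62.0% of all genes were. Klf1, the master factor of red cell formation, stood at 21.8 FPKM in Per2def and 16.2 FPKM in Per2wt (0.41), above every member in both libraries. Klf16, a Sin3a-binding relative of Klf13, stood at 8.35 FPKM in Per2def and 7.03 FPKM in Per2wt (0.22). Klf5, an activator active in granulocyte development, reached 1 FPKM in Per2def only, so that it counts as measured through the library where it was higher, and stood at 1.01 FPKM in Per2def and 0.458 FPKM in Per2wt (0.47). Its difference was 0.998 with a pseudocount of 0.1 FPKM, wider than that of Klf4 at −0.80, and its level falls under 1 FPKM in both libraries with median of ratios or upper quartile scaling. Klf8, under 1 FPKM in both and lower in Per2def, was at 0.528 FPKM in Per2def and 0.635 FPKM in Per2wt. Klf15 was at 0.0335 FPKM in Per2def and listed at 0 in Per2wt, and Klf14 and Klf17 were listed at 0 in both. All 4 measured Sp factors, which share the zinc fingers and GC-rich targets, were higher, with a median of 0.12 and Sp3 at 11.7 FPKM in Per2def and 10.6 FPKM in Per2wt, Sp1 at 11.0 against 10.04 FPKM and Sp2 at 5.69 against 5.27 FPKM.

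Partners of the factors differed little. Among all genes, 62.0% were higher in Per2def as deposited, 50.9% with median of ratios scaling and 50.4% with upper quartile scaling. Of 14 corepressor and coactivator genes 12 were higher in Per2def with the FPKM as deposited, with a median of 0.06, close to the 0.05 of all genes. With median of ratios or upper quartile scaling 8 were higher and 6 lower, and Hdac1, Hdac2, Sin3b and Crebbp turned lower. Ctbp1, the partner of Klf3 and Klf12, stood at 53.4 FPKM in Per2def and 50.6 FPKM in Per2wt. The histone deacetylase genes Hdac1 (36.6 FPKM in Per2def, 35.6 FPKM in Per2wt) and Hdac2 (29.5 and 29.1 FPKM) differed by 0.04 and 0.02 as deposited. The widest was Sap30, a subunit of the Sin3 complex named after its value was seen, at 10.3 FPKM in Per2def and 14.0 FPKM in Per2wt (−0.40). Of 6 genes for ubiquitin ligases of Klf proteins 4 were higher, with a median of 0.08, and Siah1a (3.92 FPKM in Per2def, 3.25 FPKM in Per2wt), Vhl (3.43 and 3.29 FPKM) and Fbxw7 (2.83 and 2.52 FPKM) were the most abundant.

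Genes known to act upstream of Klf2 and Klf4 were split evenly, with 6 of 12 higher and 6 lower and a median of 0.02, where 38.0% of all genes were lower. With a floor of 5 FPKM 5 of the 7 genes left were lower, where 39.7% of all genes were, and the list median was −0.11. With median of ratios or upper quartile scaling the list median was −0.02. This list holds the kinases and MEF2 factors of the ERK5 pathway, the FOXO factors and the CCM proteins that restrain it. Foxo3, a stem cell quiescence factor, stood at 15.2 FPKM in Per2def and 18.1 FPKM in Per2wt (−0.24). Mef2d stood at 16.4 FPKM in Per2def and 14.7 FPKM in Per2wt (0.15), and Ccm2 at 11.3 FPKM in Per2def and 12.3 FPKM in Per2wt (−0.11). Of 6 known Klf2 targets, 5 were above 0 in either library, and 4 of those 5 were lower, where 38.4% of all genes were. The median over the list with no filter was −0.05. The integrin gene Itgb7 stood at 6.13 FPKM in Per2def and 7.02 FPKM in Per2wt (−0.17), and the cell cycle inhibitor gene Cdkn1a at 2.77 and 2.91 FPKM (−0.05). The sphingosine phosphate receptor gene S1pr1 was the widest and was named after its value was seen, at 0.819 FPKM in Per2def and 1.54 FPKM in Per2wt (−0.48), and reached 1 FPKM in Per2wt only. The thrombomodulin gene Thbd was higher but under 1 FPKM in both, at 0.828 FPKM in Per2def and 0.731 FPKM in Per2wt (0.08).

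Immediate early genes are induced within minutes of stimulation, as several Klf genes are. They were lower in 12 of 13 measured cases, with a median of −0.30, and in 15 of 17 with no filter. Of the 13, Nr4a2 alone counted through Per2wt only. Among all genes, 38.0% were lower as deposited and 38.4% with no filter. With median of ratios scaling 49.1% of all genes were lower, and with upper quartile scaling 49.6%. Fos stood at 47.5 FPKM in Per2def and 58.8 FPKM in Per2wt (−0.30), Jun at 36.4 and 52.6 FPKM (−0.52) and Junb at 36.04 and 41.3 FPKM (−0.19). What part the stimuli behind these genes have in the Klf differences was not tested. Of the glucocorticoid receptor gene and its targets, listed for Klf9, 5 of 7 were lower (median −0.16), Sgk1 among them measured through Per2wt only, with Dusp1 at 24.2 FPKM in Per2def and 27.9 FPKM in Per2wt, Fkbp5 at 13.3 and 15.8 FPKM and Tsc22d3 at 14.1 and 14.2 FPKM. The widest of this list went the other way, the transcription factor gene Zbtb16 at 2.70 FPKM in Per2def and 1.26 FPKM in Per2wt (0.71), named after its value was seen. TGF-beta pathway genes, listed for Klf10 and Klf11, were split, with 5 of 10 lower and a median of −0.02, or 6 of 10 lower with median of ratios and upper quartile scaling. Among them Tgfb1 stood at 51.4 FPKM in Per2def and 53.2 FPKM in Per2wt, Tgif1 at 9.30 and 8.24 FPKM and Smad4 at 8.01 and 7.37 FPKM.

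**Figure D4:**
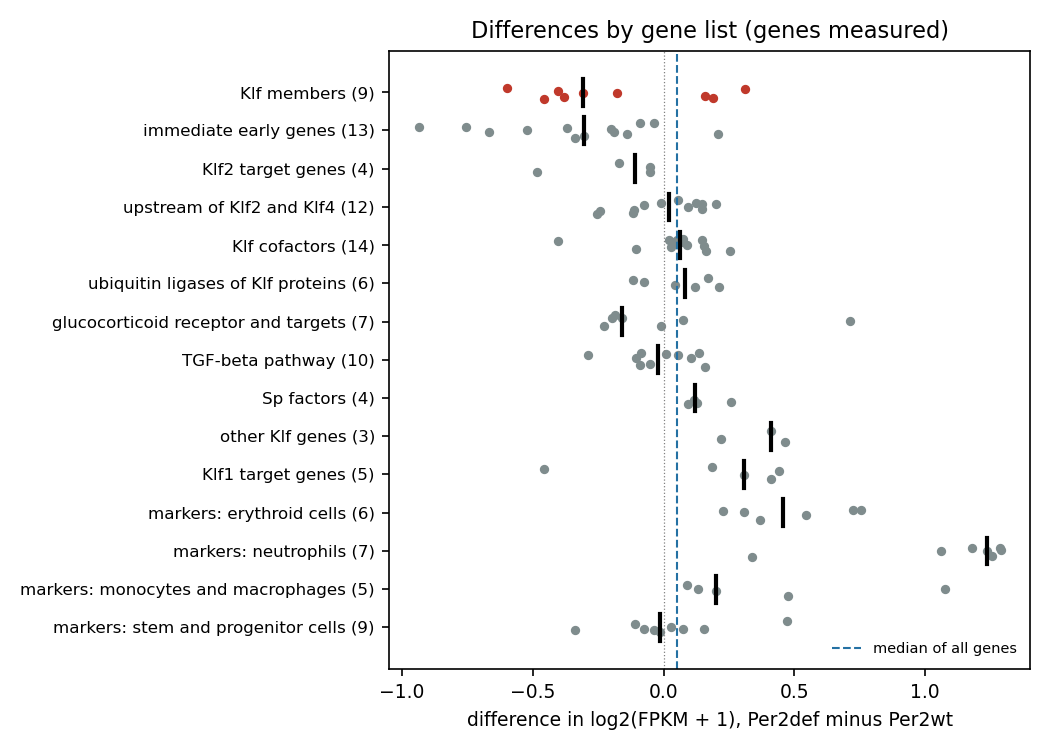
Difference in log2(FPKM + 1), Per2def minus Per2wt, for each measured gene (points, jittered up and down) of each list, with the number of genes measured in brackets, the list median as a black bar and the median of all genes (0.05) as a dashed line. The members (red, median −0.31) and the immediate early genes (median −0.30) lie to the left, and the erythroid (0.46) and neutrophil (1.23) markers to the right.

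Markers of other blood cells also differed between the libraries. Among all genes, 62.0% of those measured were higher in Per2def as deposited, and 61.5% with no filter. Erythroid markers, the cells of Klf1, were higher in Per2def in 6 of 6 measured cases (median 0.46), with a summed level of 533 FPKM in Per2def and 360 FPKM in Per2wt. Known Klf1 targets were higher in 4 of 5 measured cases (median 0.31), and in 7 of 8 with no filter, with Ermap at 24.9 FPKM in Per2def and 18.1 FPKM in Per2wt and Tfr2 at 16.01 and 13.96 FPKM. The exception was the haem synthesis gene Alas2, at 0.792 FPKM in Per2def and 1.46 FPKM in Per2wt, measured through Per2wt only and named after its value was seen. Neutrophil markers were higher in 7 of 7 measured cases (median 1.23), 6 of them at least 2-fold, where 1.25% of all genes were, and summed to 854 FPKM in Per2def and 427 FPKM in Per2wt. Those 6 were S100a8, S100a9, Ngp, Camp, Ltf and Elane, with ratios from 2.12 (Elane) to 2.65 (Ltf). Monocyte markers, the cells of Klf4, were higher in 5 of 5 measured cases (median 0.20, or 0.64 over the 2 genes left by a floor of 5 FPKM) and summed to 67.04 FPKM in Per2def and 51.1 FPKM in Per2wt, while Klf4 was lower. Ly6c2 alone of them was 2-fold higher, at 15.03 FPKM in Per2def and 6.60 FPKM in Per2wt, and Cd14 was under 0.5 FPKM in both.

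The marker lists of T cells, B cells, endothelial cells, platelets and stromal cells summed to lower levels than the erythroid, neutrophil and monocyte lists. T cell markers summed to 9.68 FPKM in Per2def and 5.87 FPKM in Per2wt. Only Lck reached 1 FPKM in both libraries, at 5.65 FPKM in Per2def and 4.12 FPKM in Per2wt (0.38), while Cd3g and Cd4 reached it in Per2def only. All 6 found in the files were higher with no filter, as were 61.5% of all genes. The B cell markers Ms4a1, Pax5 and Ebf1 were under 0.5 FPKM in both libraries, and the list summed to 6.30 FPKM in Per2def and 6.63 FPKM in Per2wt, nearly all of it Cd79b. Of 6 endothelial markers, which matter because Klf2 and Klf4 are abundant in endothelium, Nos3 was listed at 0 in both libraries, Cdh5 stood at 0.0278 FPKM in Per2def and 0.0115 FPKM in Per2wt, and Kdr at 0.0267 and 0.0913 FPKM. The list summed to 15.003 FPKM in Per2def and 14.5 FPKM in Per2wt, most of it Pecam1 (11.9 and 10.1 FPKM), which blood stem cells also express. Emcn was lower, at 2.20 FPKM in Per2def and 3.04 FPKM in Per2wt (−0.34). Tek, measured through Per2wt only, stood at 0.827 FPKM in Per2def and 1.24 FPKM in Per2wt (−0.30). Which cells made the Pecam1, Emcn and Tek RNA was not tested, so their levels cannot be assigned to endothelial cells. Platelet markers summed to 33.1 FPKM in Per2def and 33.9 FPKM in Per2wt, and stromal markers to 6.64 FPKM in Per2def and 5.33 FPKM in Per2wt with Pdgfra listed at 0 in both. The part of these other cells in the Klf differences was not tested.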

How the data were processed

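Per the file headers, each file holds the authors' Cufflinks FPKM by gene. The submitters' processing notes also name CASAVA 1.8, TopHat, Bowtie2 and the builds GRCm38 and mm10. For the other versions, the annotation, read filters and use of strand nothing is stated in the sources used here. Per the labels' protocols, libraries were made from poly(A) RNA with a kit that marks strand. Groups are the genotype labels. From 24487 rows per file, 9 flagged for too much data and 27 with symbols turned into dates were left out, and rows sharing a symbol were summed, which left 23961 symbols. The 11121 genes that reached 1 FPKM in either library were called measured. Differences use a pseudocount of 1 FPKM. Older symbols (Epb42, Adgre1) came from the RefSeq gene table, and Ahsp, Trac and Ly6g were not matched. Coordinates are from GENCODE M21. The members and lists were chosen with earlier results of these data known. The text names all Klf genes, the 3 most abundant genes of each pathway list and any gene 2-fold apart, some of which are not reported here. Marker lists are given by their sums and defining genes. Procedures were tested on simulated data, with Python 3.11.15, numpy 2.4.6 and pandas 2.3.3. Alternatives were 3 other scalings, pseudocounts of 0.1 and 0.5 FPKM, no filter, a 5 FPKM floor, only the highest of rows sharing a symbol, and fold thresholds of 1.5 and 4.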

Additional observations from a re-analysis of the deposited data

How the results depend on the processing

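The median of the measured members stayed between −0.36 and −0.24 under the 3 other scalings, both pseudocounts, no filter and the 5 FPKM floor. Under these, 6 members were lower except with the 5 FPKM floor, which leaves 5 members, 3 of them lower. The pseudocounts could not change the count of lower members. Because each member has 1 row, the choice among rows sharing a symbol could change neither the median nor the count. No member was 2-fold apart under any alternative at that threshold or at 4-fold, and 1 (Klf4) was at 1.5-fold. The difference of Klf4 ran from −0.80 with a pseudocount of 0.1 FPKM to −0.60, that of Klf11 from −0.53 to −0.38 and that of Klf13 from 0.26 to 0.35. With a floor of 5 FPKM the median of the Sin3a-binding group turned from −0.24 to 0.0015, over 2 genes in place of 4, and that of the endothelial markers from −0.30 to 0.22, over 1 gene in place of 3. With no filter the B cell marker median turned from −0.15 to 0.0015, over 6 genes in place of 1. The T cell marker median was 0.86 with a pseudocount of 0.1 FPKM, against 0.42. The median of the other Klf genes was 0.26 to 0.27 with median of ratios and upper quartile scaling, which leave 2 of its 3 genes, and 0.05 with no filter. That of the genes upstream of Klf2 and Klf4 was −0.11 with the 5 FPKM floor, against 0.02. Scalings moved the median of all genes by at most 0.05 and the share of genes lower in Per2def from 38.0% to as much as 49.6%. No paired analysis was possible because there is 1 library per genotype, and for the same reason no replicate could be left out. Depth is unknown, so low values such as those of Klf4, Klf7, Klf11 and Klf12 carry an unstated counting error.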
